A study of Danio rerio with 47 samples.

Results

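The 10 dnd morphant arrays at 22 days post fertilization (dpf), of 47 arrays in the series, were grouped by measured values. Each array was scored by the mean log2 value of 5 germ cell rows, vasa (the file's name for ddx4), smc1b, tdrd9, piwil1 and dazl. The 5 arrays with the highest scores were set against the 5 with the lowest, over the 31470 other rows of the table. They are called high-score and low-score morphants here, because the labels give every morphant a count of 1 to 9 primordial germ cells and call none of them free of germ cells.

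The morphants had received a morpholino against dnd at the 1-cell stage, and the labels give their number of primordial germ cells at 24 hours post fertilization. A morpholino is an antisense oligonucleotide that blocks translation or splicing of its target. The wild-type fish of 22 dpf (14 arrays), the morphants of 14 dpf (9 arrays) and the wild-type fish of 14 dpf (14 arrays) serve for comparison. NimbleGen arrays in 1 colour measured amplified total RNA of the developing trunk. The trunk holds muscle, skin and other tissues as well as the gonad, so fewer germ cells and less RNA per germ cell cannot be told apart. The labels leave unstated if the RNA of an array came from 1 fish or from several, and the spread between arrays may in part be technical. Array medians ran from 7.26 to 7.70 over the series, whose ages were normalized separately, and from 7.58 to 7.65 over these 10 arrays. Of the values of these 10 arrays 25% lay below 5.58. No detection calls were at hand, so values near 5 were not separated from background.

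Primordial germ cells inherit germ plasm and need the RNA-binding protein Dnd to survive and to keep their fate. Vasa is a germ cell RNA helicase, and piwil1 and tdrd9 belong to the piRNA pathway, which silences transposons in germ cells. Dazl binds RNA in germ cells, and smc1b is the meiotic form of a cohesin subunit. In juvenile zebrafish the gonad first holds early oocytes, and its later course to ovary or testis depends in part on the number of germ cells.

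Array numbers are those in the sample titles. In order of score the high-score morphants were arrays 2, 1, 18, 17 and 14, with scores of 9.49, 9.37, 7.71, 7.25 and 6.47. The low-score morphants were arrays 15, 3, 4, 16 and 13, with scores of 6.20, 5.87, 5.86, 5.82 and 5.76. The scores formed no gap at the border, where array 14 stood just inside at 6.47 and array 15 just outside at 6.20. The 14 wild-type arrays of 22 dpf ran from 8.94 over a median of 10.49 to 11.66. Only arrays 1 and 2 of the morphants reached the wild-type range, and of the wild-type arrays they passed only the lowest, array 23. Every other wild-type array scored above both. Arrays 18 and 17 stood between arrays 1 and 2 and the other morphants, and array 14 stood next to array 15. The values thus set apart arrays 1 and 2 more than they set 5 arrays against 5.

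Arrays 1 and 2 were nearly copies of each other, and so were arrays 3 and 4. The deviations of arrays 1 and 2 from the mean of the 10 morphants correlated at 0.749 over rows averaging 8 or more, and those of arrays 3 and 4 at 0.720. No other pair of these morphants passed 0.216. Nothing in the labels ties the members of a pair to 1 fish or 1 RNA, and values are given with the pairs averaged where that moved a count. In the fits that follow each such pair counted as 1 sample, as did 3 like pairs of wild-type arrays.

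The 5 rows of the score did not behave alike. Vasa stood at 10.86, 10.77, 7.89, 6.40 and 6.67 in the high-score arrays, against 5.79, 6.59, 6.45, 6.69 and 5.40 in the low-score arrays. Arrays 17 and 14 thus lay within the low-score range for vasa. Smc1b stood at 10.87, 10.37, 8.38, 9.55 and 6.63 in the high-score arrays, against 6.05, 5.17, 5.37, 4.87 and 5.51 in the low-score arrays. It was the one row of the score whose 2 ranges did not overlap.

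Tdrd9 was at 10.95, 11.03, 9.32, 7.23 and 7.38 in the high-score arrays, against 7.77, 6.63, 6.13, 4.89 and 6.79 in the low-score arrays. Piwil1 was at 7.95, 7.69, 6.12, 6.76 and 5.71 in the high-score arrays, against 5.66, 5.6, 5.36, 5.64 and 6.19 in the low-score arrays. Dazl was at 6.81, 7.0, 6.84, 6.33 and 5.95 in the high-score arrays, against 5.72, 5.37, 6.01, 7.0 and 4.93 in the low-score arrays. Array 16, among the lowest by score, had as much dazl as array 1. These values chose the groups and are given as a description only.

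**Figure D1:**
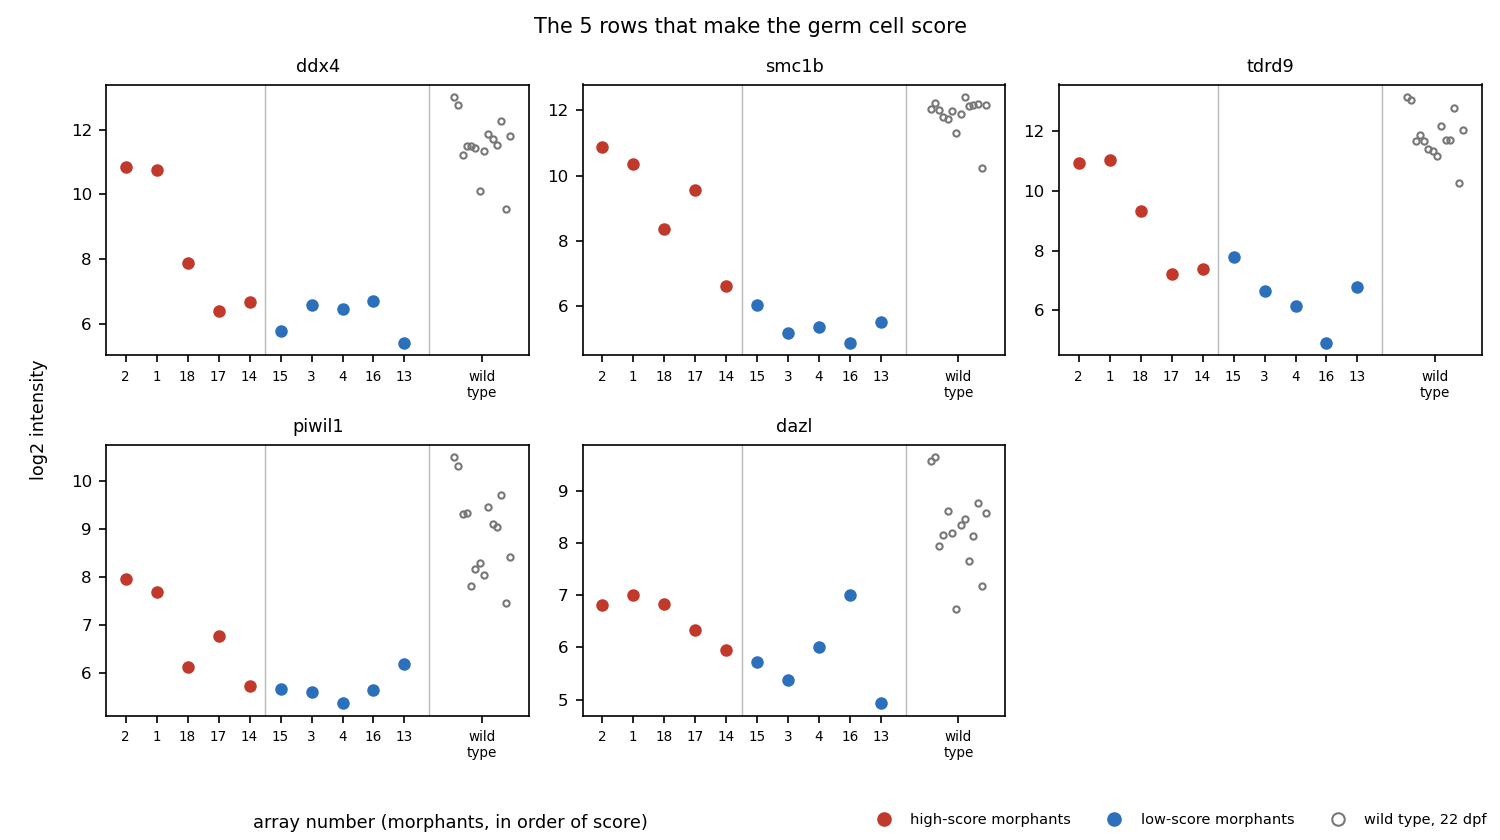
Log2 intensity of the 5 rows of the score, 1 panel each, with the 5 high-score morphants (red), the 5 low-score morphants (blue), both in order of score, and the 14 wild-type arrays of 22 dpf (open grey points). Arrays 1 and 2 reach the lowest wild-type array in all 5 panels, while vasa in array 17 (6.40) lies within the range of the low-score arrays.

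Over the other rows, a row was counted where the ranges of the 2 groups did not overlap and their means differed by at least 1 log2 unit. Because measured values chose the arrays, no p-value is given for this comparison. By this rule 61 rows (0.194%) were higher in the high-score morphants and 66 rows (0.21%) were lower. With the pairs averaged, 4 against 4, the counts were 121 and 115. Fewer arrays make ranges easier to separate, and without array 14, at the border of the score, 169 rows were higher and 204 lower. When arrays were ordered instead by the mean of 42 other germ plasm, piRNA and meiosis genes, array 16 changed places with array 14. That split counted 112 rows higher and 134 lower. No row can pass both splits, because they put arrays 14 and 16 on opposite sides.

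The 3 lists of germ cell genes held 73 genes outside the score: 18 of germ plasm and the piRNA pathway, 24 of meiosis and 32 of the oocyte and its egg coat, with buc in 2 of them. None of the 73 separated the 2 groups by the rule above, but only 0.404% of all rows did, so nothing is read from that count. Most of the 73 were on average higher in the high-score arrays. Of their differences 58 of 73 were above 0, with a median of 0.42, beside a median of 0.00 over all rows. Without arrays 1 and 2 the count was 46 of 73 and the median 0.13. The lists and the score both describe germ cells in the same 10 arrays, so these counts are a description and not separate evidence.

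The germ plasm and piRNA list had a mean of 7.85, 7.79, 6.71, 6.46 and 5.93 in arrays 2, 1, 18, 17 and 14, against 6.29, 5.84, 6.12, 6.41 and 6.27 in arrays 15, 3, 4, 16 and 13. The wild-type arrays ran from 7.17 to 10.87 with a median of 8.90. Arrays 1 and 2 stood above the lowest wild-type array, arrays 18 and 17 above all 5 low-score arrays, and array 14 between array 3 and the other low-score arrays. The meiosis list had a mean of 8.09, 8.14, 7.58, 7.54 and 7.49 in the high-score arrays, against 7.45, 7.18, 7.26, 7.48 and 7.26 in the low-score arrays. Its margin between array 14 and array 16 was 7.49 against 7.48. The oocyte list had a mean of 8.33, 8.21, 7.10, 6.94 and 6.68 in the high-score arrays, against 6.78, 6.53, 6.70, 6.82 and 6.54 in the low-score arrays.

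**Figure D2:**
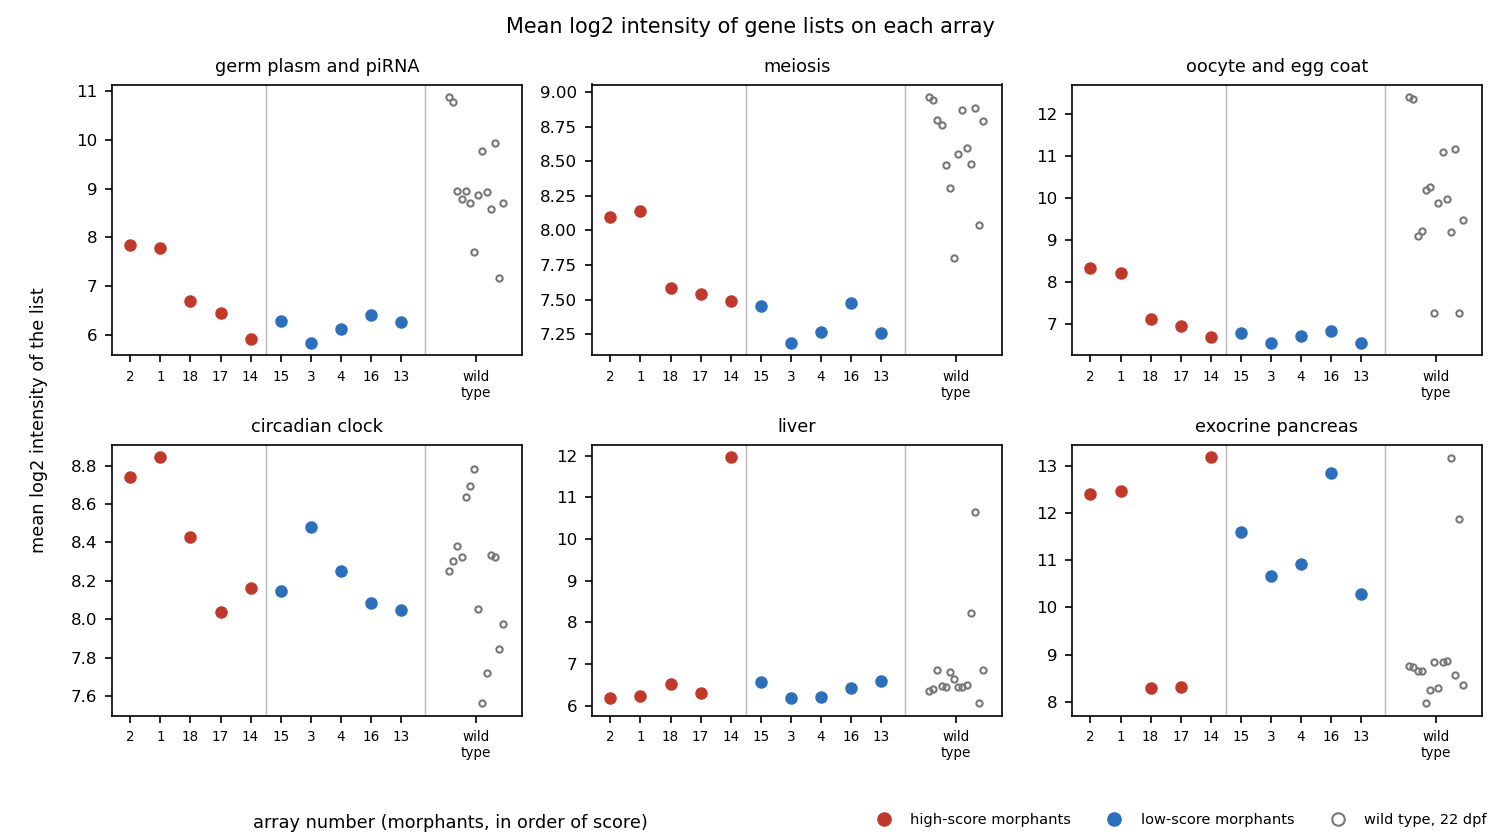
Mean log2 intensity of 6 gene lists on each array, with high-score morphants in red, low-score morphants in blue and wild-type arrays of 22 dpf as open grey points. Among morphants the 3 germ cell lists are highest in arrays 1 and 2 (oocyte list 8.33 and 8.21), and the liver list stands at 11.97 in array 14 alone. The exocrine pancreas list is lowest among morphants in arrays 17 and 18, which lie near the wild-type median of 8.70.

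Arrays 1 and 2 had the highest means of all 3 germ cell lists among the 10 morphants. After the values had been seen, rows were therefore also counted where both of these arrays lay above, or both below, the other 8 morphants and the means differed by at least 1 log2 unit. There were 666 such rows above (2.12%) and 429 below (1.36%). Of the 73 germ cell genes 29 were above and 1, the zona pellucida gene zp2l1, was below. By list, 9 of 18 germ plasm and piRNA genes, 9 of 24 meiosis genes and 12 of 32 oocyte genes were above. As arrays 1 and 2 are near-duplicates with the highest scores, these counts describe 1 pair and not a condition.

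Dnd1 itself, the target of the morpholino, is listed as dnd. It stood at 8.13, 7.62, 4.48, 5.07 and 4.64 in the high-score arrays, against 5.59, 5.36, 5.69, 4.83 and 4.44 in the low-score arrays. Arrays 2 and 1 were the only morphants above 5.69, and arrays 18, 17 and 14 were not above the low-score arrays. A morpholino acts on an RNA without needing to lower its level, so the row does not test the knockdown.

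Among the piRNA pathway genes, piwil2, the second zebrafish Piwi protein, was at 8.78 and 8.48 in arrays 2 and 1. The other 8 morphants ran from 5.95 to 7.30 and the wild-type arrays from 8.39 to 10.99. Tdrd6, a Tudor protein of the germ plasm, was at 6.73 and 6.95 in arrays 2 and 1, against 4.38 to 5.80 in the other 8 morphants. Gtsf1, a piRNA pathway cofactor, was at 8.30 and 6.56 in arrays 2 and 1, against 4.87 to 6.44 in the other 8.

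Tdrd5 and rnf17, both Tudor proteins of germ granules, extended to further arrays. Tdrd5 stood at 8.25, 7.2, 8.54, 6.28 and 4.82 in the high-score arrays, against 4.69, 3.86, 4.11, 4.12 and 5.46 in the low-score arrays. Array 18 was the highest morphant for tdrd5, and array 14 lay within the low-score range. Rnf17 stood at 9.01, 9.21, 8.48, 7.53 and 5.79 in the high-score arrays, against 5.59, 6.64, 6.35, 6.78 and 6.42 in the low-score arrays. The high-minus-low difference of tdrd5 was 2.57 ± 0.74 (SE) log2 units, and 2.09 without arrays 1 and 2. An SE of this kind counts the near-duplicate arrays singly, and with pairs averaged, 4 against 4, it was 2.27 ± 0.89.

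The meiosis genes with arrays 1 and 2 above the rest included axis and synaptonemal complex genes. Hormad1, which coats meiotic chromosome axes, was at 8.71, 8.39, 6.04, 5.27 and 5.77 in the high-score arrays, against 4.10, 4.75, 5.52, 5.12 and 4.92 in the low-score arrays. Sycp3, a lateral element protein of the synaptonemal complex, was at 8.73, 8.58, 7.10, 5.84 and 5.78 in the high-score arrays, against 4.48, 5.17, 5.02, 6.39 and 5.90 in the low-score arrays. Sycp1, of the transverse filaments, was at 9.38 and 9.25 in arrays 2 and 1, and at 7.10 to 7.69 in the other 8. Stag3, a meiotic cohesin subunit, was at 6.83, 5.96, 6.81, 6.04 and 6.05 in the high-score arrays, against 6.65, 5.29, 5.84, 5.18 and 5.40 in the low-score arrays. No morphant reached the lowest wild-type array for stag3, at 7.05.

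Oocyte genes divided between those higher in arrays 1 and 2 than in the rest and those that were not. Npm2b, a nucleoplasmin stored in the egg, was at 11.71, 11.88, 10.62, 8.21 and 7.01 in the high-score arrays, against 8.14, 7.89, 8.82, 4.87 and 5.96 in the low-score arrays. Buc, which organizes the Balbiani body of the early oocyte, was at 9.90, 10.17, 6.36, 8.05 and 4.75 in the high-score arrays, against 7.31, 5.05, 4.78, 5.96 and 5.41 in the low-score arrays. For org, an oocyte-related gene, arrays 2 and 1 had 9.55 and 9.41, while the other 8 lay between 4.26 and 6.55.

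The zona pellucida genes zp2.2 and zp2.5 encode egg coat proteins. In arrays 2 and 1 zp2.2 was at 10.80 and 10.22, against 5.50 to 8.04 in the other morphants, and zp2.5 at 11.25 and 11.86, against 5.63 to 8.5. Zp3b, of the same coat, was at 9.59, 9.05, 8.87, 8.57 and 8.53 in the high-score arrays, against 9.11, 8.27, 8.94, 8.70 and 8.14 in the low-score arrays, and its ranges overlapped. Figla, a transcription factor of early oocytes, was at 7.22 in array 1 but at 4.84 in its near-duplicate array 2, and its highest value among morphants was 7.63 in low-score array 16. Gdf9 and bmp15, growth factors of the oocyte, had high-minus-low differences of 0.20 ± 0.33 and -0.06 ± 0.53 (SE).

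**Figure D3:**
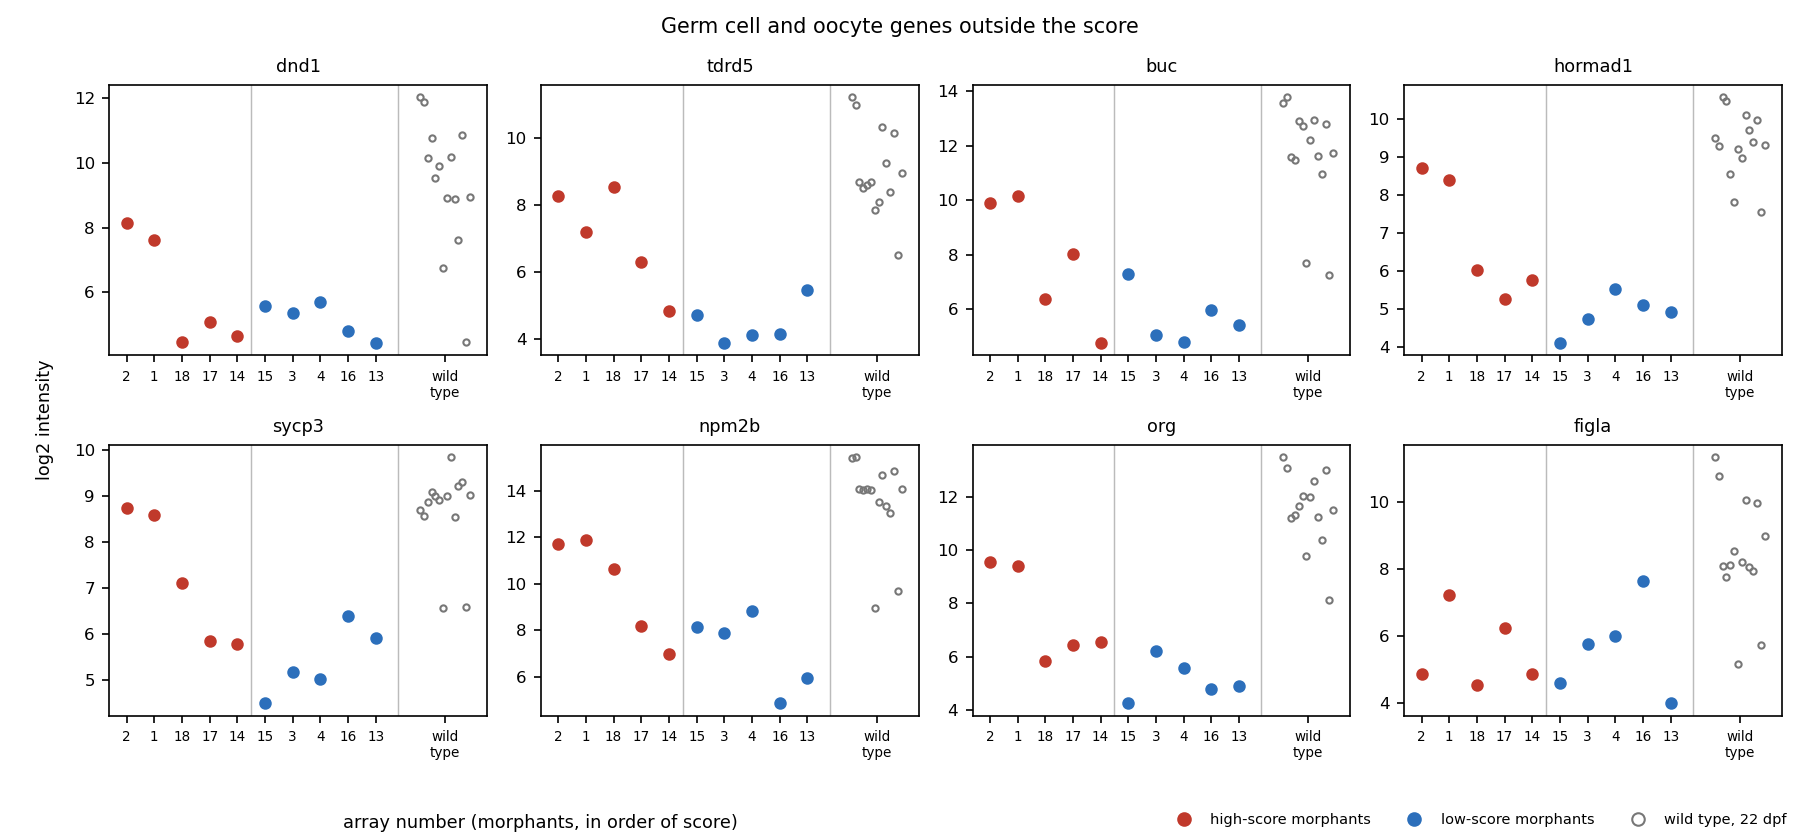
Log2 intensity of 8 germ cell and oocyte genes that are not in the score, with high-score morphants in red, low-score morphants in blue and wild-type arrays of 22 dpf as open grey points. For hormad1 and org arrays 1 and 2 stand apart from the other 8 morphants, tdrd5 is as high in array 18 (8.54), and figla follows no order of score.

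The morphants as a group were compared with wild type at 22 dpf by their labels, with near-duplicate pairs averaged (8 and 11 samples). By limma with Benjamini-Hochberg adjustment over all rows, 59 rows (0.187%) were higher and 558 (1.77%) lower in morphants. Of the 73 germ cell genes 42 were lower, 14 of them in the germ plasm and piRNA list. For these 42 genes the number that reached the lowest wild-type array was 34, 36, 20, 14 and 10 in arrays 2, 1, 18, 17 and 14. In arrays 15, 3, 4, 16 and 13 it was 14, 12, 8, 14 and 11. Arrays 17 and 14 therefore did not stand apart from the low-score arrays by this count, and array 18 did so with 20 genes. Over all 553 rows lower in morphants outside the score, the numbers were 445, 427, 259, 247 and 170 in the high-score arrays, against 199, 186, 198, 199 and 158 in the low-score arrays. The lowest wild-type value was taken for each row, and it can lie far below the other wild-type arrays. Npm2b was at 8.98 and 9.68 in wild-type arrays 11 and 23, and at 13.06 or more in the others. Reaching the lowest wild-type array is therefore not the same as a usual wild-type level.

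Of the 673 rows in the 28 gene lists 3 separated 5 arrays from 5, namely foxl2a, junba and wnt5b. That share of 0.446% was near the 0.404% of all rows. Of the 61 higher rows 34 carried a gene symbol. By limma 14 of the 61 were lower in morphants than in wild type, against 1.77% of all rows. The number that rose with the score in the other groups was 3, against 0.143% of all rows. The morphant arrays that chose the 61 rows also entered the comparison with wild type, so the 14 are a description only. The score behind the choice of the 61 rows also called the rising rows, so the 3 are a description as well. Of the 66 lower rows 40 carried a symbol, and 0 were called by limma in morphants against wild type in either direction. Over all rows 0.187% were called higher and 1.77% lower, so nothing is read from 0 among 66.

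Tuba7l, an alpha-tubulin gene, stood at 11.57, 12.03, 9.87, 9.87 and 9.67 in the high-score arrays, against 8.70, 8.99, 8.23, 8.32 and 7.82 in the low-score arrays. All 5 high-score arrays thus lay above all 5 low-score arrays, and arrays 1 and 2 were within the wild-type range of 11.01 to 13.59. The lower end was wild-type array 23, and the next lowest, array 11 at 12.18, lay above every morphant. The mean of tuba7l was lower by 3.40 ± 0.43 log2 units in morphants than in wild type (SE, limma adjusted p = 0.000288). Tbpl2, a TATA-binding protein relative that acts in oocytes, stood at 6.59, 7.05, 5.86, 6.0 and 5.08 in the high-score arrays, against 4.70, 4.57, 4.70, 5.04 and 4.83 in the low-score arrays. The margin between array 14 and array 16 was 5.08 against 5.04. Tbpl2 differed by -2.99 ± 0.53 log2 units between morphants and wild type (SE, limma adjusted p = 0.00378).

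Foxl2a, a transcription factor of ovarian follicle cells listed as foxl2, was 1 of 25 ovary soma genes and separated the groups, as 0.194% of all rows did in this direction. It stood at 6.21, 5.88, 6.74, 7.65 and 6.81 in the high-score arrays, against 5.21, 5.79, 5.43, 5.0 and 5.74 in the low-score arrays. It was highest in arrays 17, 14 and 18 and not in arrays 1 and 2, and the gap between array 1 and array 3 was 5.88 against 5.79. Wild-type arrays ran from 5.73 over a median of 8.31 to 9.88, and morphants were lower than wild type by 2.13 ± 0.43 (SE, limma adjusted p = 0.0102). Its paralogue foxl2b stood at 7.53, 7.29, 8.08, 7.91 and 7.01 in the high-score arrays, against 6.45, 7.55, 6.93, 4.85 and 5.84 in the low-score arrays, with overlapping ranges. The high-minus-low difference was 1.22 ± 0.34 for foxl2a and 1.24 ± 0.50 for foxl2b (SE, 5 arrays each). With pairs averaged, the differences were 1.42 ± 0.37 and 1.51 ± 0.56 (SE, 4 against 4).

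Other gonad genes did not separate the groups. Cyp19a1a, the ovarian aromatase, was at 4.73, 6.46, 4.61, 7.05 and 3.97 in the high-score arrays, against 5.12, 3.97, 4.32, 4.81 and 4.33 in the low-score arrays. The 2 highest values, in arrays 17 and 1, were not shared by array 2. Gsdf, a growth factor of the cells around germ cells, was at 7.18 and 7.26 in arrays 2 and 1, against 4.96 to 6.34 in the other 8 and 6.48 to 8.5 in wild type. It was the only 1 of 24 testis soma genes with both arrays above the others by at least 1 log2 unit, beside 2.12% of all rows.

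Amh, the anti-Müllerian hormone, was highest in array 14 at 7.34, while the other morphants ran from 4.95 to 6.26. Sox9a, a transcription factor of Sertoli cells, was at 7.66 in array 17 and between 4.88 and 5.54 elsewhere. Dmrt1, which acts in testis differentiation, was at 5.54, 5.67, 5.58, 5.08 and 4.87 in the high-score arrays, against 5.26, 5.27, 4.96, 4.75 and 4.74 in the low-score arrays. None of 21 steroid synthesis genes separated the groups, and none of these had arrays 1 and 2 apart from the rest. Over all rows 0.404% separated the groups, and 2.12% had arrays 1 and 2 above the rest and 1.36% below. Nothing is therefore read from these counts of 21 genes.

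Other higher genes came from no list. Colec11, a collectin of innate immunity, had a difference of 2.70 ± 0.52 (SE). Genes whose ranges lie apart, foxl2a included, have small SEs by selection, so these SEs describe the arrays and test nothing. Colec11 stood at 8.65, 7.44, 8.12, 7.65 and 7.32 in the high-score arrays, against 4.04, 4.43, 4.98, 6.62 and 5.63 in the low-score arrays. Wild-type arrays ran from 5.13 to 10.50, and low-score arrays 15, 3 and 4 lay below all of them. Wild-type arrays 11 and 23 were at 5.13 and 5.52, and the other wild-type arrays at 7.61 or more. Fgfbp3, a carrier protein for fibroblast growth factors, was at 11.42, 11.49, 11.86, 9.96 and 10.89 in the high-score arrays, against 9.65, 9.85, 9.48, 8.70 and 9.29 in the low-score arrays. The urad gene, of uric acid degradation, owed its difference of 1.83 to array 14 at 11.29, since the other 9 morphants lay between 3.85 and 4.86.

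Among genes lower in the high-score morphants, siglec15l stood at 5.93, 6.29, 5.78, 5.75 and 5.73, against 7.95, 7.26, 8.30, 7.99 and 7.54 in the low-score morphants. The high-score arrays were close together, and the wild-type range of 4.99 to 8.76 covered both groups. Smarcc1a, a subunit of the BAF chromatin remodelling complex, was at 10.65, 10.26, 12.09, 11.79 and 12.43 in the high-score arrays, against 12.83, 13, 12.98, 12.68 and 13.17 in the low-score arrays. Arrays 1 and 2 were below every wild-type array, of which the lowest was 11.74.

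Wnt5b, a secreted Wnt ligand, was at 8.10, 6.87, 6.27, 5.61 and 8.02 in the high-score arrays, against 9.16, 8.39, 8.19, 8.13 and 8.56 in the low-score arrays. Junba, an immediate early gene of the AP-1 family, was at 9.74, 9.59, 9.93, 7.5 and 8.5 in the high-score arrays, against 9.99, 11.49, 11.59, 10.96 and 10.35 in the low-score arrays. Wnt5b was 1 of 43 Wnt pathway genes and junba 1 of 23 stress and immediate early genes, counts from which nothing is read beside the 0.21% of all rows. Alg10 and gig2l had differences of -2.63 ± 0.76 and -2.46 ± 0.88 (SE), and with pairs averaged -2.43 ± 0.79 and -2.72 ± 1.04. For gig2l arrays 15 and 16 stood highest, at 13.69 and 12.11. The difference of colec11 with pairs averaged was 2.53 ± 0.59.

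**Figure D4:**
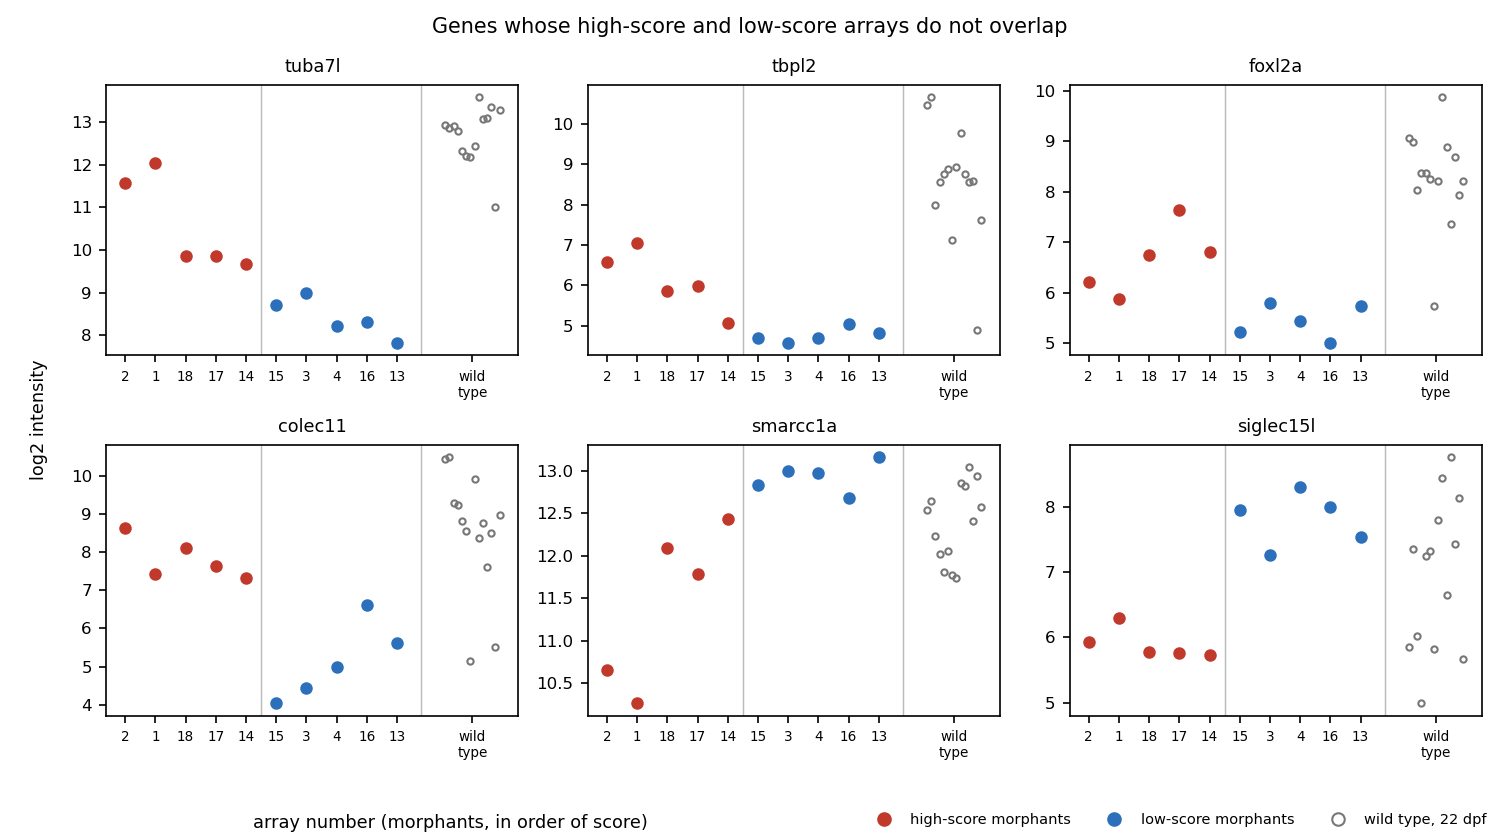
Log2 intensity of 4 genes that were higher (tuba7l, tbpl2, foxl2a, colec11) and 2 that were lower (smarcc1a, siglec15l) in all 5 high-score morphants (red) than in all 5 low-score morphants (blue), with wild-type arrays of 22 dpf as open grey points. For tuba7l the morphants lie mostly below wild type, while for siglec15l wild-type arrays spread over both groups. For colec11 only wild-type arrays 11 and 23 lie within the low-score range.

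Whether a row moves with the score was tested in arrays the rule had not used. In the morphants of 14 dpf and the wild-type fish of both ages (34 samples) each row was fitted by limma on the score, with a mean for each group, so that only differences within a group counted. Of 31470 rows, 45 rose with the score (0.143%) and 8 fell (0.0254%) at an adjusted p below 0.05. At an unadjusted p below 0.05 they were 1723 and 1652. Fitted alone, the wild-type arrays of 22 dpf gave 462 rising rows, those of 14 dpf gave 1, and the morphants of 14 dpf gave 0 (860 at an unadjusted p below 0.05). Without array 3 of the 14 dpf morphants and array 20 of the 14 dpf wild type, whose scores of 8.97 and 7.35 lay farthest from their groups, 219 rows rose. The slopes of the groups were not tested against each other.

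Of the 18 germ plasm and piRNA genes 9 rose: dnd1, piwil2, tdrd1, tdrd5, tdrd6, gtsf1, rnf17, mov10l1 and henmt1. Dnd1 had a slope of 1.2 ± 0.24 log2 units per unit of score (SE, limma adjusted p = 0.022). The slope was 0.94 ± 0.15 for gtsf1 (SE, limma adjusted p = 0.00289) and 0.81 ± 0.18 for tdrd5 (SE, limma adjusted p = 0.0395). One of 24 meiosis genes rose, hormad1, with a slope of 0.79 ± 0.15 (SE, limma adjusted p = 0.0155). One of 32 oocyte genes rose, org, with 1.07 ± 0.19 (SE, limma adjusted p = 0.00969). With title numbers up to 12 and from 13 on as a block, dnd1, tdrd6, gtsf1, rnf17 and org kept the call. Piwil2, tdrd1, tdrd5, mov10l1, henmt1 and hormad1 lost it, with limma adjusted p of 0.0534 to 0.0779. Of the gonad genes above, foxl2a had a slope of 0.51 ± 0.19 and did not pass (SE, limma adjusted p = 0.334).

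The row with the lowest p, zgc:103482, is listed by a clone name and had a slope of 1.36 ± 0.11 (SE, limma adjusted p = 1.925e-09). In the 22 dpf morphants it stood at 10.99, 11.26, 8.51, 9.32 and 8.0 in the high-score arrays, against 7.39, 7.32, 7.12, 6.73 and 7.69 in the low-score arrays. The 3 rising rows that also separated 5 from 5 by the rule were zgc:103482, tuba7l and ex155891, of which tuba7l lost its call under the block. Hcfc2 rose as well (slope 0.657), but its high-score arrays lay below all low-score arrays, at 7.365 to 8.659 against 8.755 to 9.622. Its difference of -0.993 fell short of the 1 log2 unit of the rule. Wee2, an oocyte kinase that holds the cell cycle, was at 8.42 and 8.56 in arrays 2 and 1, and adad1, a testis RNA-binding gene in mouse, at 8.38 and 8.17. The other 8 morphants ran from 4.80 to 7.91 for wee2 and from 4.17 to 7.16 for adad1.

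In the 22 dpf morphants 36 of the 45 rising rows had a higher mean in the high-score arrays, and the median difference was 0.90. Over all rows 15740 of 31470 did, with a median of 0.00. Without arrays 1 and 2 the count was 32 of 45 and the median 0.33. In 24 of the 45 rows arrays 1 and 2 both stood above the other 8 morphants, against 2.12% of all rows. The rising rows were called in other arrays, but by the same score that put these arrays in order. The counts of 36, 32 and 24 are therefore a description and not separate evidence. Of the 8 falling rows 4 had a higher mean in the high-score arrays.

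**Figure D5:**
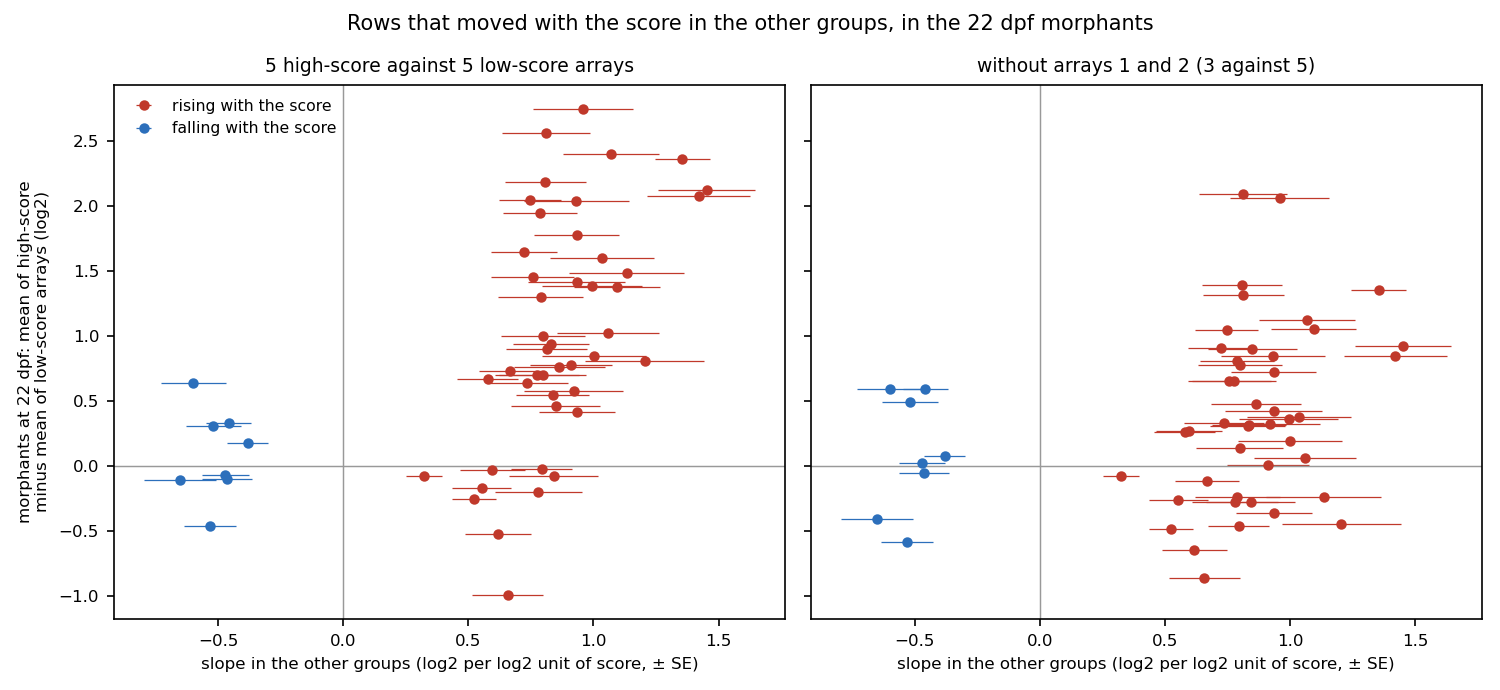
Rows that rose (45, red) or fell (8, blue) with the score in the other groups, with their slope (± SE, limma) on the horizontal axis and the high-minus-low difference among 22 dpf morphants on the vertical axis, for all 10 arrays (left) and without arrays 1 and 2 (right). The median difference of the rising rows is 0.90 on the left and 0.33 on the right.

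Markers of other tissues also varied among the 10 arrays. Of 18 blood genes 16 had a lower mean in the high-score arrays. The blood list mean was 9.41, 9.54, 9.51, 9.57 and 10.31 in the high-score arrays, against 9.66, 10.26, 10.16, 9.61 and 10.40 in the low-score arrays. Only array 14 kept the high-score arrays from lying below all low-score arrays. Of 19 bone and cartilage genes 16 had a higher mean in the high-score arrays, as did 15740 of all 31470 rows. Their list mean was 8.96, 9.07, 9.45, 9.29 and 9.52 in the high-score arrays, against 8.89 to 9.19 in the low-score arrays. Arrays 2 and 1, with the highest scores, thus lay within the low-score range. Neither list was tested. No member of either separated the groups, as 0.404% of all rows did, so nothing is read from that.

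The liver list (22 genes) had a mean of 11.97 in array 14 and of 6.17 to 6.59 in the other 9 morphants. Fabp10a, a liver fatty acid binding protein, was at 15.15 in array 14 and at 7.29 to 10.22 in the others. The exocrine pancreas list (21 genes) was at 8.29 and 8.31 in arrays 18 and 17, and at 10.29 to 13.18 in the other 8. Wild-type arrays of 22 dpf ran from 7.97 over a median of 8.70 to 13.15. Arrays 18 and 17 were thus near the wild-type median, and the other 8 morphants lay above it. Ela3l, an elastase, was at 9.90 and 9.31 in arrays 18 and 17, against 13.97 to 15.44 in the rest. The part of these tissues in the counts of rows was not tested beyond leaving out single arrays.

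Clock genes are given by score and by title number, the second chosen after the values were seen. By score, 19 of 29 clock genes had a higher mean in the high-score arrays and none separated the groups. Over all rows 15740 of 31470 had a higher mean and 0.404% separated. By title number, 11 of 29 were higher in each of arrays 1 to 4 than in all of arrays 13 to 18, and 2 were lower, against 3.41% and 2.63% of all rows. Ciarta, a repressor of the circadian loop, was at 11.93, 11.91, 11.26 and 10.79 in arrays 2, 1, 3 and 4, and at 8.92 to 9.87 in arrays 13 to 18. Dbpa, a clock output gene, was at 9.27, 8.96, 9.28 and 8.65 in arrays 2, 1, 3 and 4, and at 5.44 to 6.35 in arrays 13 to 18. The list mean did not divide by title number, with array 18 at 8.43 and array 4 at 8.25. The high-score and low-score groups hold 2 of arrays 1 to 4 each.

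In arrays 2 and 1 the means of the clock, epidermis and ovary soma lists also lay above those of the other 8 morphants. The clock list was at 8.74 and 8.84, against at most 8.48 in the others. The epidermis list was at 13.32 and 13.43, against at most 13.27. The ovary soma list was at 8.15 in both, against at most 8.01. Of 20 epidermis genes 2 were above, as were 2 of 25 ovary soma genes, against 2.12% of all rows. The blood list overlapped, at 9.41 and 9.54 against 9.51 to 10.40. Of 29 clock genes 5 were above the other 8 morphants and 1 was below, against 2.12% and 1.36% of all rows. Among those above was nr1d1, at 9.39 and 9.61 against 4.58 to 8.09. Of 18 blood genes 4 were below, against 1.36% of all rows, and 17 had a lower mean there than in the rest. Klf1, an erythroid transcription factor, was at 7.78 and 7.49 in arrays 2 and 1, against 8.72 to 9.86. Of the 666 rows above in arrays 1 and 2, 199 were lower in morphants than in wild type, against 1.77% of all rows. Arrays 1 and 2 also entered that comparison, so the 199 are a description only. The part of clock, blood, epidermis and ovary soma genes in the other counts was not tested.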

How the data were processed

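The values are log2 intensities deposited by the authors, made by RMA (robust multi-array average) per the submitters' processing notes, in a version not given in the sources used here. Per the labels' protocols, amplified RNA was labelled with Cy3 and read in 1 colour. The labels call the arrays biological replicates but do not say whether each holds a fish or a pool, so p-values measure only the spread between these samples. The small number of arrays bounds the precision. The labels state 10 replicates for the 14 dpf morphants, but the series holds 9 such arrays, all of which were analysed here.

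Of 31475 rows 22574 matched 1 gene, 8815 none and 86 several. For the 983 genes with more rows, the row with the highest mean was used. Pairs of arrays within a group whose deviations from the group mean correlated above 0.65 over rows averaging 8 or more were averaged for the fits (5 of 263 pairs). The score was the mean of the 5 rows, and rows were compared 5 against 5 by range and by a difference of at least 1. Slopes and the difference of morphants and wild type came from limma 3.58.1 (R 4.3.3), adjusted by Benjamini-Hochberg over all rows, and called at an adjusted p below 0.05. Both were tested on simulated data. Python 3.11.15, numpy 2.4.6 and pandas 2.3.3 did the rest. The samples, the 28 lists and the rules were chosen with earlier results of these data known. Named genes were the rows of the score and dnd1, the 15 largest differences each way among separated rows with 1 gene name, the largest absolute differences within each list (at most 4), and a fixed set of gonad genes. Genes named beyond these, and the comparison of arrays 1 and 2 with the rest, were chosen after their values were seen. No sequences were used.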

Additional observations from a re-analysis of the deposited data

Results flagged for a closer look

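Among 102 sets of 5 arrays examined, 6 held an array whose gap to the nearest of the others was above Dixon's critical value of 0.71 of the range. Chance gives about 1 in 20. The leukocyte list stood at 7.77 in high-score array 18, against 8.19 to 8.32 in the other high-score arrays. The liver list stood at 11.97 in high-score array 14, against 6.17 to 6.52 in the others. In the same array the blood list stood at 10.31, against 9.41 to 9.57 in the others. Sox9a stood at 7.66 in high-score array 17, against 4.99 to 5.54 in the others. Among low-score arrays, the skeletal muscle list stood at 13.58 in array 16, against 13.34 to 13.40 in the others, and the epidermis list at 12.82 in array 15, against 13.16 to 13.27.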

How the results depend on the processing

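The counts of separated rows moved with the arrays that entered. Higher and lower rows numbered 121 and 115 with pairs averaged, 247 and 277 without the array on each side of the border, 112 and 134 by the other germ cell score, 455 and 395 in title numbers of 13 and above, and 216 and 237 without arrays 1 and 2. Leaving out each array in turn gave 78 to 169 higher and 83 to 204 lower rows, both highest without array 14. Fewer arrays make ranges easier to separate, and with pairs averaged 58 of the 61 and 65 of the 66 rows were kept. Centring the arrays gave 50 and 75, and a mean of at least 6 gave 45 and 52.

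Rows rising and falling with the score numbered 90 and 16 over all 37 arrays, 25 and 1 with title numbers up to 12 and from 13 on as a block, and 219 and 15 without the 2 farthest samples. Fitted alone, wild type of 22 dpf gave 462 and 12, wild type of 14 dpf 1 and 0, and morphants of 14 dpf 0 and 0. Without averaging, all 24 arrays of 22 dpf gave 250 rows higher and 882 lower in morphants. With pairs averaged (19 samples) they were 49 and 477 with that block, beside 59 and 558 without it. No paired analysis was possible because title numbers are not shared between morphants and wild type of one age. Of the differences between high-score and low-score arrays, 8 for named genes and 5 for lists were counted as moved. All of these were in title numbers of 13 and above. The cut-off for this count is not given, and values also changed in other settings. Without array 14 the liver list difference went from 1.05 to -0.08. Without arrays 1 and 2 that of the germ plasm and piRNA list went from 0.76 to 0.18. The difference of dnd1 then went from 0.81 to -0.45, while that of tdrd5 went from 2.57 to 2.09. Over all alternatives 22 slope calls of named genes were lost and 12 gained. In single groups 14 of the losses fell on the 14 dpf groups and 2, tuba7l and hormad1, on wild type of 22 dpf, which also gave 11 gains. Among the named genes counted here, the block lost tuba7l, tdrd5, mov10l1 and hormad1. Hormad1 was also lost without the farthest samples, and mov10l1 with arrays 5 and 13 averaged. Piwil2, tdrd1 and henmt1 lost their call under the block as well but are not in these counts. Between morphants and wild type, hsd17b1 lost its call under the block and under centring and zp3b under the block, and 5 genes gained one over all 24 arrays. Leaving out arrays 1 and 2, leaving out the farthest samples and averaging arrays 5 and 13 of the 14 dpf morphants were chosen after seeing the data. The causes were not tested.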
